A study of Rattus norvegicus with 12 samples.

Results

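Epididymal white fat of rats carrying an antisense growth hormone (GH) transgene was compared with that of rats without it, both fed freely. The samples were chosen by their titles: 4 arrays titled as anti-sense GH transgene (Tg) and 4 titled ad libitum (AL), 8 of the 12 arrays in the series. The other 4 arrays, from rats under caloric restriction (CR), entered the fit and 1 comparison. Tg rats were heterozygous transgenic dwarf rats, AL and CR rats were wild Wistar rats, and all were killed at 24 weeks of age. CR rats received 70% of the energy intake from 6 weeks of age. Food was given to every group shortly before the evening dark phase, and fat was taken after lights on the next morning. The genotype field reads Jcl:Wistar (-/-) on all 12 arrays, the Tg arrays included, so the grouping rests on titles and source names. The labels do not name the promoter that drives the transgene. The arrays are labelled biological replicates. The arrays of a group carry the same description code, and each group has its own. If it marks a working session, session and group cannot be told apart.

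GH is a pituitary hormone that binds the receptor GHR and activates the kinase JAK2, which phosphorylates the transcription factors STAT5A and STAT5B. In many tissues STAT5 induces insulin-like growth factor 1 (Igf1) and the feedback inhibitors Socs2 and Cish. In adipose tissue GH is known for promoting the breakdown of stored triglyceride and for opposing insulin. An antisense transgene is designed to lower GH made by the pituitary, so the fat arrays hold no direct readout of its target.

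Signals are log2 values built from the probe scores of each array, and a difference of 1 is a doubling of the fluorescence signal. The median signal was 6.346 to 6.447 on the Tg and AL arrays, and probe sets near or below it are dim. Adipocyte markers were high on all 8 arrays, with Adipoq (adiponectin) at 13.20 to 13.54, Plin1 (perilipin) at 12.17 to 12.59 and Fabp4 at 13.55 to 13.93. Transcripts of neighbouring tissues were unevenly spread. The spermatid score, the mean log2 signal of 16 measured markers of 20 such as the protamine Prm1, was 9.14 on AL1, 10.10 on AL2 and 9.47 on Tg2, against 5.24 to 5.95 on the other 5. For duct epithelium the score, over 19 of 20 markers such as Epcam and Krt8, was 7.93 on Tg2, 8.06 on Tg4, 7.51 on AL3 and 6.53 on Tg3, against 5.67 to 5.92 elsewhere. The exocrine pancreas score, over 19 of 21 markers, was 10.15 on Tg1 and 4.92 to 5.20 on the other 7. Pancreatic lipase (Pnlip) was 11.43 on Tg1 and 4.51 to 4.88 elsewhere. Carboxypeptidase A1 (Cpa1) was 8.26 to 9.46 on the AL arrays and 6.57 to 7.64 on Tg2 to Tg4. The 3′ minus 5′ log2 signal of the GAPDH control probe sets, a sign of RNA quality, was -0.07 to -0.01 on Tg arrays and 0.03 to 0.06 on AL arrays, with no overlap. That of beta-actin was 1.03 to 1.11 against 0.97 to 1.07 and overlapped. Whether these differences contribute to the results was not tested, except where a value without the arrays or with the scores in the fit is given.

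**Figure D1:**
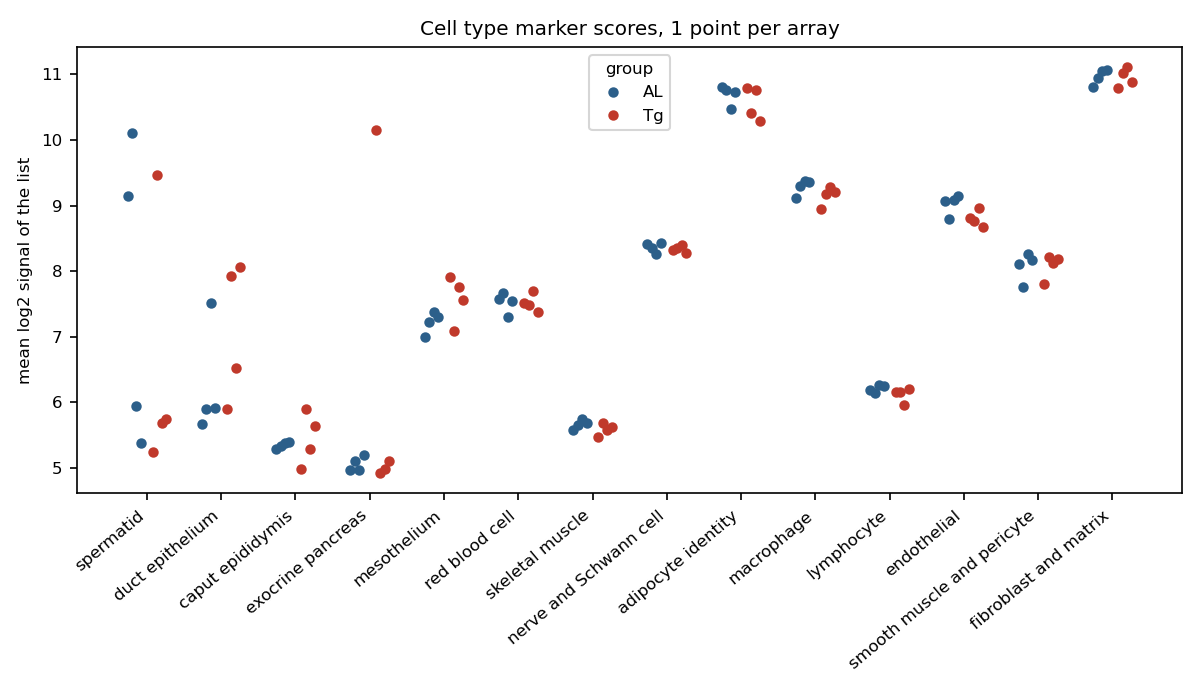
Mean log2 signal (vertical axis) of each cell type marker list (horizontal axis), 1 point per array, for AL (blue) and Tg (red). Spermatid and duct epithelium markers are high on some arrays of both groups and exocrine pancreas markers on Tg1 alone (10.15), while the adipocyte score stays between 10.29 and 10.81 on all 8.

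The Tg and AL fat profiles differed little. Of 23281 probe sets tested with limma, 2 passed a Benjamini-Hochberg adjusted p of 0.05 (0.00859%), both lower in Tg, and 0 passed in the other direction. At an unadjusted p under 0.05 there were 1358 probe sets (5.83%), 581 higher (2.50%) and 777 lower (3.34%). At an unadjusted p under 0.001 there were 9 higher and 37 lower, so the smallest p lay mostly on the lower side. Tg and AL arrays did not overlap for 1017 probe sets (4.37%), 462 higher in Tg (1.98%) and 555 lower (2.38%). Counted by genes, an unadjusted p under 0.05 was reached by 1.84% on the higher side and 2.84% on the lower, and arrays did not overlap for 1.58% and 1.95%. The precision bounds what could have been missed. The median standard error (SE) of a change was 0.11, and for 82.0% of probe sets (19093) the 95% confidence interval of the change lay within 1.5-fold in either direction. Only 792 probe sets (3.40%) had an estimated change beyond 1.5-fold. The number of arrays limits this precision.

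Spn, which encodes CD43, the major surface sialoprotein of leukocytes, was the only gene called by its brightest probe set (1 of 12096 genes, 0.00827%). Its log2 signal was 7.90, 7.86, 7.89 and 7.93 on the Tg arrays and 8.39, 8.30, 8.43 and 8.45 on the AL arrays. The groups did not overlap, and the 4 Tg arrays lay close together. Spn fell by 0.50 (SE 0.06, 95% interval -0.62 to -0.38, limma adjusted p = 0.0411). On the CR arrays it was 7.87 to 8, below every AL array, and Tg and CR did not differ by the test (change -0.05, limma adjusted p = 0.677). The call sits close to the threshold: it was lost in 20 of 25 alternative settings, while the change stayed between -0.53 and -0.45 in all 25.

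The other call was a dim probe set of Diaph1, a formin that assembles unbranched actin filaments. It read 5.73, 5.47, 5.55 and 5.54 on Tg arrays and 6.63, 6.39, 6.26 and 6.46 on AL arrays, again with no overlap. The change was -0.86 (SE 0.10, limma adjusted p = 0.0436), and its call was lost in 21 of 24 alternatives. The brighter Diaph1 probe set read 8.55 to 8.69 on Tg arrays and 8.61 to 8.69 on AL arrays, a change of -0.04 (SE 0.07). The 2 probe sets of this gene therefore disagree, and no change can be stated for the gene.

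The genes described next were chosen for the smallest p among those whose arrays did not overlap, and none passed the adjusted test. On the higher side, Cxcl13, a chemokine that attracts B cells, read 8.53, 8.89, 8.92 and 8.73 on Tg arrays and 7.47, 7.80, 8.36 and 7.61 on AL arrays. AL3 came nearest to the Tg arrays, and the change was 0.96 (SE 0.20, limma adjusted p = 0.375). Acsm1, a mitochondrial medium-chain acyl-CoA synthetase, read 6.63 to 6.84 against 5.58 to 6.36 (0.78, SE 0.17, adjusted p = 0.403). The other 8 on this side had changes from 0.24 to 0.50 and adjusted p from 0.325 to 0.548. They were LOC102555913, the kinase gene Map3k12, Igdcc3, the receptor phosphatase gene Ptprs, Alkbh7, Zfp612, Nat8b and Fam120c. Of these, LOC102555913 (5.59 to 6.11) and Igdcc3 (5.18 to 5.76) were dim on every Tg and AL array. A second probe set of Fam120c had the opposite sign (-0.22) and that of Zfp612 gave 0.04 against 0.45, while both further probe sets of Ptprs were higher (0.25 and 0.26).

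On the lower side, Sesn3, a sestrin that restrains the growth kinase complex mTORC1, read 6.04, 5.80, 5.88 and 5.95 on Tg arrays and 6.4, 6.34, 6.58 and 6.31 on AL arrays. Every Tg array lay below every AL array, and the change was -0.49 (SE 0.08, limma adjusted p = 0.181). Sesn3 was dim, with its Tg values below the median signal of every array. Nabp1, a single-stranded DNA binding protein, read 9.05 to 9.35 against 9.91 to 10.18 (-0.82, SE 0.14, adjusted p = 0.215). Both were also lower in Tg than in CR by the test, Sesn3 by a change of -0.48 (adjusted p = 0.0205) and Nabp1 by -1.26 (adjusted p = 0.00365). With the replicate number as a block these p-values were 0.0494 and 0.0201. The same Tg arrays enter both comparisons, and these genes were picked for low values on them. The comparison with CR is therefore no separate support. The remaining 7 were Nfe2l1, a transcription factor that induces proteasome genes (-0.39), Pa2g4 (-0.39), Tbc1d12 (-0.62), Rnd1 (-0.48), the RNA helicase gene Ddx6 (-0.58), the DNA methyltransferase gene Dnmt3a (-0.61) and the small heat shock protein gene Cryab (-0.66). Their adjusted p ran from 0.235 to 0.481. A second Pa2g4 probe set was higher (0.15), the further Ddx6 probe sets gave -0.22 and 0.01, and a second Dnmt3a probe set was also lower (-0.52).

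**Figure D2:**
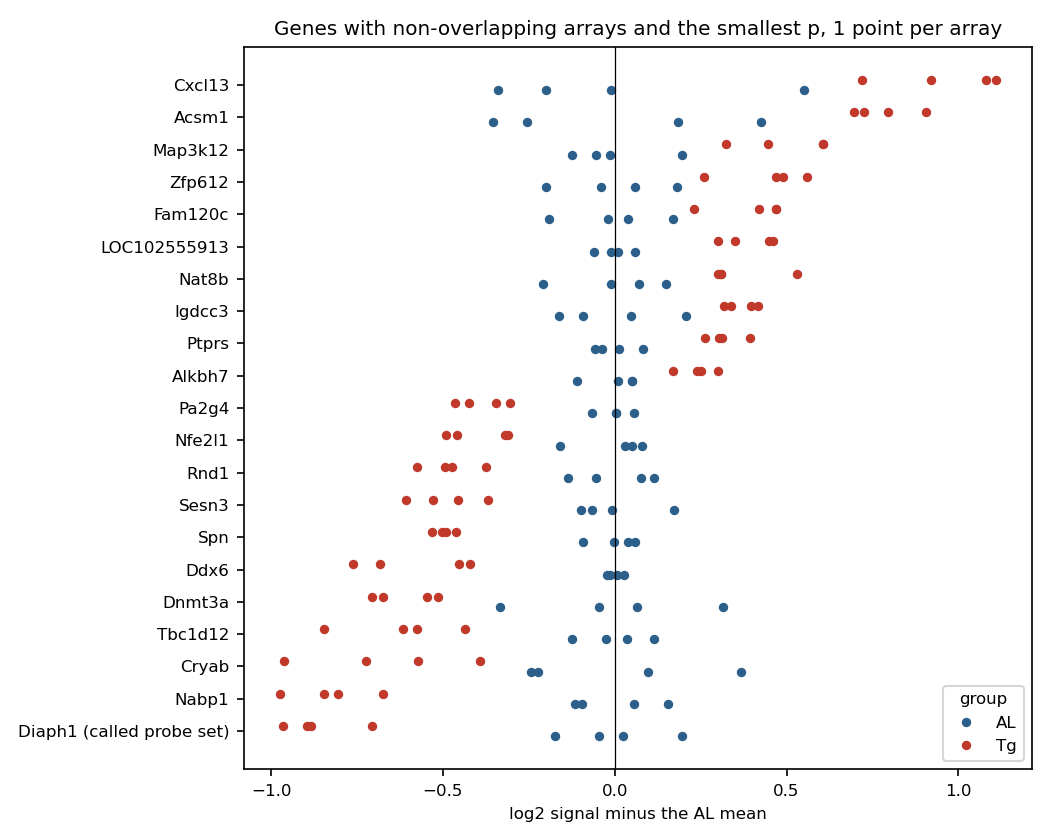
Log2 signal relative to the AL mean (horizontal axis) for the 10 genes with the smallest p in each direction among those whose arrays do not overlap, plus the called Diaph1 probe set, 1 point per array (AL blue, Tg red). Only Spn and the Diaph1 probe set passed the adjusted test, and the Tg points of Spn form the tightest cluster apart from the AL points, from 7.86 to 7.93.

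Genes of the GH and IGF-1 axis showed no coordinated shift. Of 24 tested members of 26, 13 were higher and 11 lower in Tg, 0 passed the test, and the median change was 0.03 against -0.005 over all 12096 genes. With the spermatid and duct scores in the fit 14 were lower and the median was -0.02. For 18 of the 24 the 95% interval lay within 1.5-fold, beside 79.8% of all genes. Gh1 itself, the transgene's target in the pituitary, was near the dim end in fat at 5.42 to 5.82 in Tg and 5.48 to 5.62 in AL.

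The receptor gene Ghr had the most negative change of the axis. It read 11.41, 11.21, 11.44 and 10.80 on Tg arrays and 11.47, 11.73, 11.60 and 11.68 on AL arrays. The groups did not overlap, though Tg3 came close to AL1 and Tg4 stood lowest. The change was -0.40 (SE 0.14, 95% interval -0.70 to -0.10), with a limma adjusted p of 0.68, and a second probe set gave -0.35. Below the receptor, Jak2 (-0.07), Stat5a (-0.08) and Stat5b (-0.15) did not pass, and their intervals excluded changes as large as 1.5-fold. Tg3 was the high array for Stat5b at 7.52, against 7.09 to 7.13 on the other 3.

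Among the targets, Igf1 read 11.95, 12.42, 12.20 and 12.10 on Tg arrays and 12.23, 12.39, 12.56 and 12.30 on AL arrays. The groups overlapped and the change was -0.20 (SE 0.11, 95% interval -0.43 to 0.03, limma adjusted p = 0.84). A fall of Igf1 by more than 1.5-fold in this fat lies outside that interval. Socs2, a feedback inhibitor of the receptor, read 5.45 to 5.92 against 5.04 to 6.05 and changed by -0.02 (SE 0.19), so its groups overlapped throughout. It was dim on every array.

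Cish, the other feedback inhibitor, was named after its values were seen. It read 8.52, 5.98, 5.94 and 6.74 on Tg arrays and 6.50, 6.15, 6.24 and 7.39 on AL arrays. Tg1, the array with the high pancreas score, stood above all others. The change was 0.23 (SE 0.55, limma adjusted p = 0.933) with Tg1 and -0.35 without it. Its promoter is shown because Cish is a textbook STAT5 target whose start region carries repeated sites of the STAT5 type. In the 250 bases before the start, RefSeq (GRCr8, chr8:116850719-116850968, plus strand) holds 4 copies of TTCNNNGAA, a motif that reads alike on both strands, starting at positions -241, -230, -136 and -119 from the start. Capitals mark the copies.
Cish: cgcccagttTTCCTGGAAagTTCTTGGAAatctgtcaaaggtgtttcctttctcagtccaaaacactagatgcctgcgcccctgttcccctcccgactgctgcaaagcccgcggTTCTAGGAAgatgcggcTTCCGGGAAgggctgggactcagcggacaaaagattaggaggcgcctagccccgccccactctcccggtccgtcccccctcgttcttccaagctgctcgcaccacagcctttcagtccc
The motif occurs at least once in 7.67% of the 33469 RefSeq promoters of this length (2566), and 2 promoters (0.00598%) hold 4 or more. Of the 26 axis genes 24 were matched, with 27 promoters, and 3 held it, that of Cish among them. These matches describe letters in the genome and are not binding measured here.

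The binding proteins and receptors of IGF-1 were mixed. Igf1r had the most positive change of the axis, 0.70 (SE 0.34, 95% interval -0.04 to 1.45), reading 7.79, 8.54, 7.87 and 8.69 on Tg arrays and 7.38, 7.03, 8.13 and 7.54 on AL arrays. The highest arrays of each group, Tg2, Tg4 and AL3, are those with the highest duct epithelium scores, and the part of such cells in the result was not tested. Igf2r, which clears IGF-2, read 9.49 to 9.61 against 9.65 to 9.92 without overlap (-0.19, SE 0.10). Igfbp3 changed by 0.07, Igfbp4 by -0.21, Igfbp5 by -0.19, Igfbp6 by 0.18 and Igfbp2 by 0.33, and none passed.

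**Figure D3:**
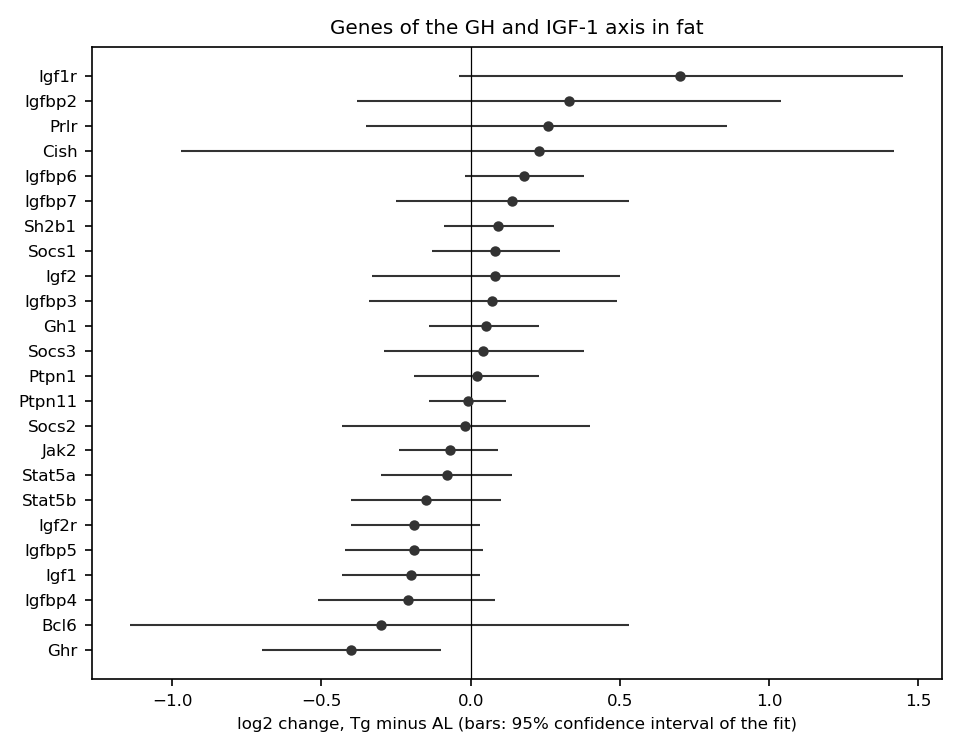
Log2 change of Tg minus AL (horizontal axis) for the 24 tested genes of the GH and IGF-1 axis, with bars for the 95% confidence interval of the fit. Ghr has the lowest estimate and Igf1r the highest, and the Ghr interval, from -0.70 to -0.10, is the only one that excludes 0.

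Genes of fat breakdown and its control were mostly a little lower. The list holds inhibitors such as G0s2 beside lipases, so its balance does not give a direction for fat breakdown. Of 15 lipolysis genes tested, 14 were lower in Tg and 0 passed, with a median change of -0.16 against -0.005 over all genes. Of the 15, 2 had an unadjusted p under 0.05 on the lower side, where 2.84% of all genes did, and 4 had lower arrays without overlap, where 1.95% did. G0s2, the inhibitor of adipose triglyceride lipase, read 10.98, 11.28, 11.04 and 11.29 on Tg arrays and 11.76, 11.36, 11.62 and 11.86 on AL arrays. The groups did not overlap, with AL2 nearest to the Tg arrays, and the change was -0.51 (SE 0.12, limma adjusted p = 0.481). G0s2 was also lower in Tg than in CR (-0.61, adjusted p = 0.0307, and 0.0494 with the replicate number as a block). The Tg arrays are the same in both comparisons, so the second is no separate support. Mgll, which cleaves the last fatty acid from glycerol, read 10.88 to 11.56 against 11.58 to 11.91 (-0.49, SE 0.15, adjusted p = 0.638).

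The lipases that take the earlier steps were nearer to AL. Pnpla2, the adipose triglyceride lipase, changed by -0.17 (SE 0.17) and Lipe, the hormone-sensitive lipase, by -0.15 (SE 0.19), with overlapping arrays. In both, Tg2 and Tg4 were the low Tg arrays and AL3 the low AL array, which are the arrays with the highest duct epithelium scores. With the spermatid and duct scores in the fit, 8 of the 15 lipolysis genes were lower in place of 14 and the median was -0.07. Pnpla2 (0.01) and Lipe (0.09) then changed sign. In bulk fat, fewer cells of a type and less RNA per cell cannot be told apart.

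The G0s2 promoter is shown because this gene had the smallest p of the lipolysis list. RefSeq (GRCr8, chr13:107335949-107336198, minus strand, printed in the gene's direction) holds 1 copy of TTCNNNGAA, in capitals, starting at position -54.
G0s2: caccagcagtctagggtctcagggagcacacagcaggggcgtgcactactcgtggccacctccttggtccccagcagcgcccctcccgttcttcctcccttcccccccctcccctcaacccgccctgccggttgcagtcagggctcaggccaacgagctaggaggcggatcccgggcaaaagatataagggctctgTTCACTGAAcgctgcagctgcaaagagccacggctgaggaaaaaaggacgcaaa
With the motif in 7.67% of promoters, a copy here is a description and is no sign of STAT5 binding.

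Adipocyte identity genes were lower in 18 of 19 cases, with a median of -0.10 and 0 past the test. With the spermatid and duct scores in the fit 8 of 19 were lower and the median was 0.01. Pparg, the master regulator of adipocytes, spanned 9.66 to 10.91 in Tg and 9.75 to 10.65 in AL (-0.06, SE 0.30). Adipoq (-0.02) and Lpl (-0.06), the lipoprotein lipase gene, were close to equal, but Adipoq was above an array's saturation level on 3 of the 12 arrays and Lpl on 7, which compresses differences. Triglyceride synthesis and storage genes were lower in 16 of 19 cases (median -0.11, 0 past the test). Gpd1 (-0.28), Dgat2 (-0.30) and the lipid droplet gene Cidec (-0.17) were among them. With the scores in the fit, 10 of 19 were lower and the median was -0.01.

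Of the adipokines and secreted factors, 10 of 15 were lower (median -0.09) and 0 passed. An unadjusted p under 0.05 on the lower side was reached by 5 of the 15, beside 2.84% of all genes. Leptin (Lep), whose message follows fat cell size, read 10.83, 10.33, 10.80 and 10.57 on Tg arrays and 10.78, 11.13, 10.84 and 11.21 on AL arrays. The groups overlapped, since Tg1 and Tg3 lay just above AL1, and the change was -0.36 (SE 0.13, limma adjusted p = 0.708). Fgf21, dim on every Tg and AL array, was lower without overlap, at 5.69 to 6.03 against 6.16 to 6.28 (-0.38, SE 0.13, adjusted p = 0.68). The vascular peptide gene Apln changed by -0.43 (SE 0.16).

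Angptl8, an insulin-induced secreted inhibitor of lipoprotein lipase, had the most negative change among the members of all lists but the neighbouring-tissue markers. It read 8.22, 7.11, 7.70 and 7.84 on Tg arrays and 9.21, 8.70, 8.21 and 9.61 on AL arrays. AL3, the AL array with a high duct score, fell just below Tg1, and the other 3 AL arrays lay above every Tg array. The change was -1.21 (SE 0.30, 95% interval -1.87 to -0.56, limma adjusted p = 0.493). Against CR, where Angptl8 was higher still, the change was -3.12 (adjusted p = 0.00168), with the same Tg arrays in both comparisons. Among fatty acid uptake genes as a whole, 10 of 16 were lower (median -0.07, 0 past the test), with the fatty acid carrier Fabp5 at -0.56 (SE 0.20).

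Insulin signalling genes were lower in 13 of 19 cases, with a median of -0.08 and 0 past the test, and in 8 of 19 with a median of 0.05 with the spermatid and duct scores in the fit. Insr, the insulin receptor gene, changed by 0.08 (SE 0.12) and Foxo1 by -0.27 (SE 0.13). Grb14, an adaptor that inhibits the insulin receptor, read 9.41, 8.75, 9.24 and 9.06 on Tg arrays and 9.73, 9.30, 9.75 and 9.54 on AL arrays. Only Tg1 overlapped with the AL arrays, through AL2, and the change was -0.47 (SE 0.14, limma adjusted p = 0.638). Grb14 was higher in Tg than in CR (0.93, adjusted p = 0.0143), so Tg lay between the other groups.

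Many fatty acid synthesis genes were lower in Tg than in CR, and none passed the test between Tg and AL. Of 21 lipogenesis genes tested, 8 were higher and 13 lower in Tg than in AL, and the median was -0.03. Arrays did not overlap for 2 on the higher side, Fads1 and Acacb, beside 1.58% of all genes, and for 0 on the lower. Acacb was dim, at 5.06 to 5.37 on the Tg and AL arrays. The 95% interval lay within 1.5-fold for 11 of the 21, and a larger difference from AL lies inside the interval for the others. With the spermatid and duct scores in the fit 14 were higher and the median was 0.09. The CR arrays also differed in quality and in neighbouring-tissue transcripts. The 3′ minus 5′ log2 signal of the hexokinase control was 0.56 to 0.85 on CR arrays and 0.91 to 1.07 on Tg arrays, without overlap. CR3 had 5.71% blank probes and a background of 58.46, above every other array. The spermatid score of CR1 was 8.22, the duct scores of CR2 and CR4 were 7.96 and 8.13, and the caput epididymis score of CR4 was 9.78. The part of these in the comparison with CR was not tested, beyond the values given without some arrays or with the scores in the fit. Against CR, 20 of 21 were lower in Tg and 14 passed the adjusted test, with a median of -1.01 beside 0.02 over all genes; 147 genes (1.22%) passed on the lower side in all and 86 (0.711%) on the higher. Fatty acid synthase (Fasn) read 11.05, 10.71, 10.89 and 11.02 on Tg arrays, 11.22, 11.13, 10.80 and 11.03 on AL arrays, and 12.98, 12.97, 13.37 and 12.67 on CR arrays. Tg and AL overlapped (-0.12, SE 0.14), and every CR array lay above both. Against CR, Fasn was lower by the test (-2.08, SE 0.14, limma adjusted p = 0.000108).

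Other members that were lower in Tg than in CR included Acaca, which makes malonyl-CoA (-2.40, adjusted p = 0.00042), Acly, which supplies acetyl-CoA (-1.72, adjusted p = 0.00612) and the elongase gene Elovl6 (-3.08, adjusted p = 0.0102). Pnpla3 changed by -3.24 (adjusted p = 0.00501) and the regulator Srebf1 by -0.86 (adjusted p = 0.0192). Scd, the stearoyl-CoA desaturase gene, did not pass (-2.37, adjusted p = 0.124). It spanned 9.57 to 11.60 in Tg and 9.17 to 12.76 in AL, and was saturated on 2 of the 12 arrays, which compresses differences. Fads1, a desaturase of polyunsaturated fatty acids, lay between the other groups. It read 8.76 to 9.06 in Tg, above the AL arrays at 8.38 to 8.71 (0.35, SE 0.13, adjusted p = 0.761) and below the CR arrays at 9.17 to 9.72 (-0.61, adjusted p = 0.0419, and 0.0531 with the replicate number as a block).

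In all, 386 probe sets differed between Tg and CR (1.66%), and 196 did with the replicate number as a block. Same-numbered Tg and CR arrays deviated together, but some arrays of different number did so as strongly, so whether the number pairs them is not settled by the data. The count was 34 without CR1, 38 without Tg2, 67 without Tg3, 74 without CR3, 125 without Tg1 and 132 without CR2. It was 141 without Tg4, 186 without AL1, 229 without AL4, 317 without AL3, 325 without AL2 and 567 without CR4. With the spermatid and duct scores in the fit it was 2089, and 818 with the pancreas score added. The 14 lipogenesis calls became 13 with the block. They became 7 without Tg2, 8 without Tg3, 6 without CR1, 8 without CR3, and 2 without AL1, AL2 and Tg2, the Tg and AL arrays with high spermatid scores, a fit that kept CR1. In the other direction, they became 18 with the spermatid and duct scores in the fit, 16 with the pancreas score added and 17 without CR4. Cholesterol synthesis genes had 8 of 19 members lower in Tg than in CR by the test, among them Mvd (-0.65, adjusted p = 0.0307, and 0.0586 with the block), with a median of -0.46, beside 1.22% of all genes called lower. That count was 5 with the block, 3 on the deposited series table, 0 without Tg2, Tg3, CR1 or CR3, 2 without Tg1, Tg4, AL1 or CR2, and 4 without AL4. It was 13 with the spermatid and duct scores in the fit and 9 with the pancreas score added. Against AL the cholesterol list had a median of -0.02 with 0 calls, and of 0.04 with the scores in the fit.

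**Figure D4:**
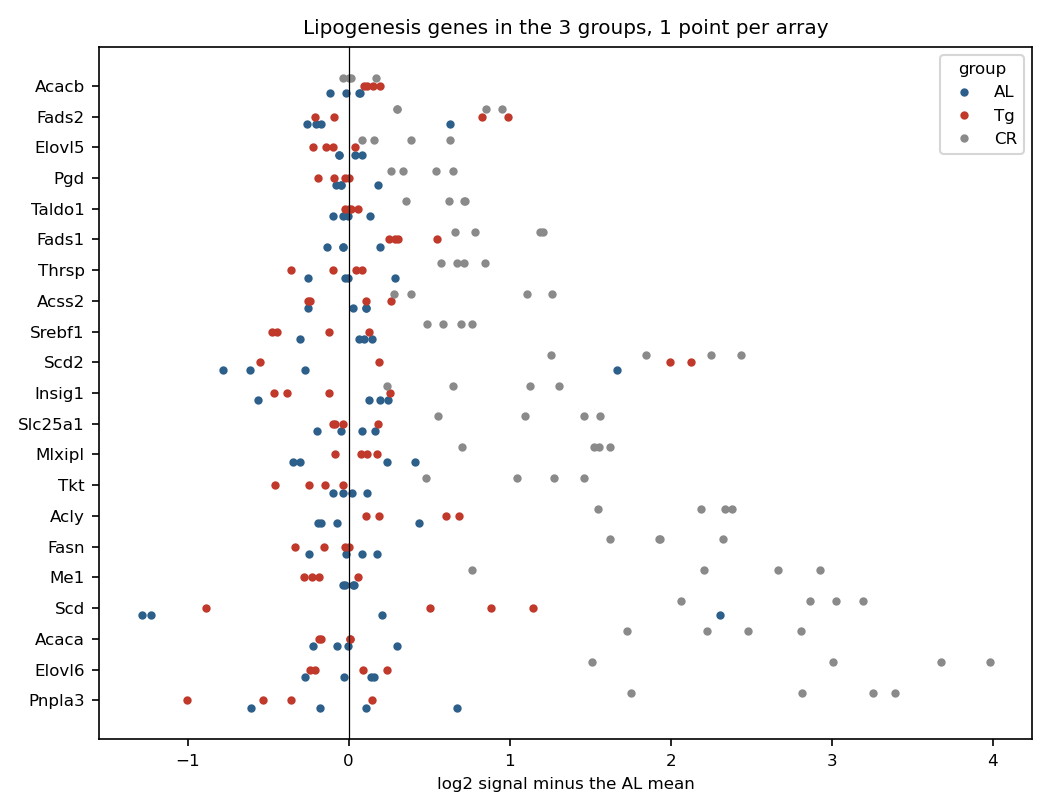
Log2 signal relative to the AL mean (horizontal axis) of the 21 tested lipogenesis genes, 1 point per array, for AL (blue), Tg (red) and CR (grey). The Tg points of Fasn (10.71 to 11.05) lie among the AL points, and the CR points (12.67 to 13.37) lie to the right of both.

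None of the genes in the energy metabolism lists passed the test between Tg and AL. Oxidative phosphorylation genes were lower in 23 of 28 cases with a median of -0.06, and all 28 intervals lay within 1.5-fold. With the spermatid and duct scores in the fit 15 were lower and the median was 0. Fatty acid oxidation (12 of 20 lower, median -0.03) and the citrate cycle (15 of 24 lower, median -0.04) lay close to the median of all genes, and with the scores in the fit both balances turned, to 15 and 18 members higher and medians of 0.05 and 0.04. Glycolysis genes were lower in 13 of 18 cases (median -0.09), and with Aldoa (-0.15) and Pgam1 (-0.12) 2 had lower arrays without overlap, beside 1.95% of all genes. Ehhadh, a peroxisomal oxidation enzyme, changed by 0.70 (SE 0.30), with Tg2 (7.44), Tg4 (7.79) and AL3 (7.30) highest, the arrays with the highest duct scores. Among thermogenic genes 7 of 12 were higher (median 0.09). Ucp3 read 7.24 to 7.55 in Tg and 7.66 to 8.21 in AL without overlap (-0.49, SE 0.16, limma adjusted p = 0.644).

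Leukocyte transcripts were lower on balance, with Spn the only call. In the list of leukocyte integrins and surface sialoproteins, 12 of 16 genes were lower, 1 fell, and the median was -0.16. Itgal, the alpha chain of the integrin LFA-1, read 7.46, 7.24, 7.27 and 7.37 on Tg arrays and 8.02, 7.47, 7.93 and 7.84 on AL arrays. AL2 was the lowest AL array, just above Tg1, and the change was -0.48 (SE 0.11, limma adjusted p = 0.493). Itgb2, the partner beta chain, read 8.02 to 8.36 against 8.43 to 8.65 (-0.33, SE 0.08, adjusted p = 0.493). Of the 16 genes, 3 had lower arrays without overlap, Spn among them, beside 1.95% of all genes. The list was chosen with earlier results of these data known and holds Spn itself. Its counts are therefore a description and no separate support for the Spn call.

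Macrophage genes were lower in 24 of 29 cases with a median of -0.10, and in 28 of 29 with a median of -0.18 with the spermatid and duct scores in the fit. None passed. Cd68, a lysosomal marker of macrophages, read 8.99 to 9.16 against 9.02 to 9.47 (-0.22, SE 0.09), and Spp1, osteopontin, read 6.96 to 7.64 against 7.35 to 8.34 (-0.71, SE 0.25). Lymphocyte genes were lower in 14 of 18 cases (median -0.20), Spn among them, and MHC class II genes in 7 of 8 (median -0.15, and 8 of 8 with a median of -0.39 with the scores in the fit). Interferon response genes were lower in 14 of 20 cases (median -0.07), with the chemokine gene Cxcl10 at 5.76 to 6.05 in Tg and 6.12 to 6.80 in AL (-0.49, SE 0.14, adjusted p = 0.638).

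All 18 endothelial genes tested were lower, with a median of -0.21 and 0 past the test, and 17 of 18 were lower with a median of -0.16 with the spermatid and duct scores in the fit. Pecam1, an adhesion molecule of the vessel lining, read 9.11, 9, 9.18 and 8.85 on Tg arrays and 9.53, 9.24, 9.65 and 9.51 on AL arrays. The groups did not overlap, with AL2 and Tg3 closest, and the change was -0.45 (SE 0.14, limma adjusted p = 0.644). Eng, a co-receptor of TGF-beta in vessels, read 8.84 to 9.14 against 9.15 to 9.45 (-0.31, SE 0.10), and the transcription factor gene Erg changed by -0.39 (SE 0.13). Smooth muscle and pericyte genes (median -0.01) and fibroblast and matrix genes (median -0.02) had no such balance, with 7 of 13 and 16 of 30 lower. With the scores in the fit, 9 of 13 were lower with a median of -0.11, and 17 of 30 with a median of -0.02.

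Immediate early genes, which respond within minutes to stimulation or handling of tissue, were lower in 23 of 25 cases, with the lowest median of the gene lists outside the neighbouring-tissue markers, -0.24. None passed, and 20 of 25 were lower with the scores in the fit. Fosb read 5.28, 5.48, 6.05 and 6.12 on Tg arrays and 7.14, 5.76, 6.66 and 7.25 on AL arrays. AL2 was low and lay among the Tg arrays, and the change was -0.97 (SE 0.30, limma adjusted p = 0.638). Atf3 read 6.07 to 6.23 against 6.43 to 6.51 without overlap (-0.34, SE 0.09, adjusted p = 0.522), and Jun 9.60 to 9.77 against 9.74 to 10.10 (-0.30, SE 0.08, adjusted p = 0.548).

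Among actin and formin genes 17 of 22 were lower with a median of -0.07, and 4 had lower arrays without overlap, beside 1.95% of all genes. These included profilin (Pfn1), which feeds actin to formins, at 10.93 to 10.99 in Tg and 11.12 to 11.35 in AL (-0.24, SE 0.06), the blood cell GTPase gene Rac2 (-0.31, SE 0.08) and the leukocyte formin gene Fmnl1 (-0.24, SE 0.08). All 3 had limma adjusted p from 0.493 to 0.638. This list, which holds Diaph1, was also chosen with earlier results of these data known, so its counts are a description only. Clock genes were higher in 11 of 17 cases (median 0.09), with Cry1 at 0.38 (SE 0.36), and glucocorticoid and fasting response genes were evenly split (9 of 18, median 0.01). In the proliferation list 11 of 18 were lower (median -0.06). Antioxidant genes (10 of 21 lower, median 0.02, and 12 of 21 lower with a median of -0.01 with the scores in the fit) and ER chaperones (15 of 20 lower, median -0.06) completed the lists, with 0 calls in each.

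**Figure D5:**
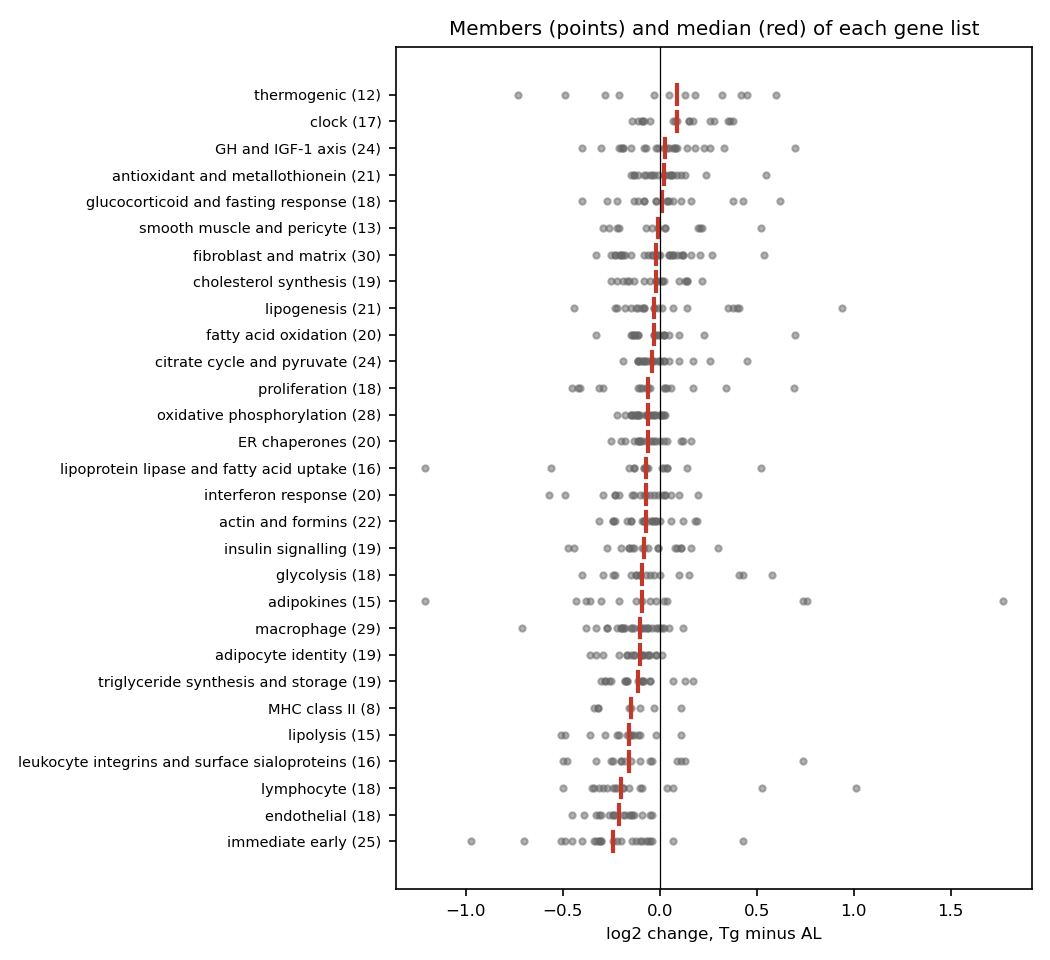
Log2 change of Tg minus AL (horizontal axis) of the tested members of each gene list (grey points, number tested in brackets) with the list median (red). Immediate early (-0.24), endothelial (-0.21) and lymphocyte (-0.20) medians lie lowest among these lists, which leave out the neighbouring-tissue markers, and thermogenic and clock medians (0.09) highest.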

How the data were processed

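The authors deposited, per the file headers, a z-score for every probe of an array and, on a log10 scale, the array's own mean and SD; software names were not given in the sources used here. In addition, the authors' series table holds 1 intensity for a probe set, and its median lay between 222.6 and 239.4 on the 8 arrays; its log2 correlated with the values used here at r from 0.983 to 0.993, and how it was summarised is unknown. The design had assumed 1 signal per probe set; since the files held single probes, up to 11 scores per set were summarised by median polish and rescaled to a log2 signal with the mean of the deposited array parameters. Blank probes were 0.325% to 1.15% and background 34.46 to 44.07 on the 8 arrays. The 57 control probe sets were left out, and sets above the 25th percentile of the 12-array mean were tested. Of 31099 probe sets, 20826 had 1 gene symbol, 436 several and 9780 none in the platform annotation; genes are shown by their brightest tested set.

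The test was limma (version 3.58.1, R version 4.3.3; lmFit, eBayes with trend) on 12 arrays, two-sided, with Benjamini-Hochberg adjustment over 23281 probe sets; the script was tested on simulated data. Named genes are those past the threshold, the 10 in each direction with the smallest p and no overlap, a fixed list, and up to 4 per gene list. Cish and the dim Diaph1 set were added after their values were seen. Members and lists were chosen with earlier results of these data known. Same-numbered Tg and CR arrays deviated together (r 0.353 to 0.649 over probe sets). Some of different number did so too (Tg4 with CR2 0.754, Tg1 with CR3 0.594). Block values are therefore given for that comparison without taking the pairing as settled. Same-numbered Tg and AL arrays did not all deviate together (r -0.336 to 0.467). Some Tg and AL arrays of different number did (Tg4 with AL3 0.797, Tg3 with AL4 0.616). Alternatives covered summary, scaling, filter, trend, arrays and covariates.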

Additional observations from a re-analysis of the deposited data

Results flagged for a closer look

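A check for single arrays that stand apart from the other 3 of their group covered 112 groups of 4 values and marked 7, and chance marks about 1 in 20. Of these, 3 were scores of neighbouring tissues: the exocrine pancreas score of Tg1 (10.15 against 4.92 to 5.11 on the other Tg arrays), the spermatid score of Tg2 (9.47 against 5.24 to 5.75) and the duct epithelium score of AL3 (7.51 against 5.67 to 5.92). The lymphocyte score of Tg3 was 5.96 against 6.16 to 6.20. For single genes, Nat8b was 7.13 on Tg1 against 6.90 to 6.91, Stat5b was 7.52 on Tg3 against 7.09 to 7.13, and Adipoq was 13.20 on Tg4 against 13.36 to 13.39. The cause of these values was not tested.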

How the results depend on the processing

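The count of 2 probe sets for Tg against AL was 0 in 19 of 25 alternatives, among them the series table, the probe mean, median centring, quantile normalization, the 8 arrays alone, the replicate block, the arrays without AL1, AL2 and Tg2, those without high duct scores and 3 scores as covariates (the last 2 chosen after seeing the data). It was 1 with a filter at the 50th percentile and with the spermatid and duct scores as covariates, 2 with no filter and without a trend, and 0 to 2 leaving out 1 array. The call without AL1 was an unnamed probe set. Unadjusted p under 0.05 held for 706 to 2338 probe sets over these alternatives. Same-numbered Tg and AL arrays did not all deviate together, and the block made 0 calls.

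The count for Tg against CR, 386, was 220 centred, 196 with the block, 2089 with 2 scores and 818 with 3 scores as covariates, 208 without high duct arrays, 5 without AL1, AL2 and Tg2, and 34 (without CR1) to 567 leaving out 1 array.

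Of 3679 recomputed values for 148 named genes, 3592 kept direction and side of the threshold, 41 lost the call (Spn and Diaph1) and 46 changed sign, in 16 genes. The largest main changes among these were those of Scd (0.41, SE 0.72), Bhlhe40 (0.35, SE 0.25) and Cish (0.23, SE 0.55). On the series table Gh1 was -0.02 and Socs2 0. With quantile scaling Adipoq was 0.05. With 2 scores as covariates Adipoq was 0.05, Pparg 0.26, Scd -0.01, Lipe 0.09 and Pnpla2 0.01, and with 3 scores Adipoq was 0.06, Pparg 0.16, Fasn 0.02, Lipe 0.08, Pnpla2 0.04, Idh3b 0.01 and Cish -0.12. Without AL1, AL2 and Tg2, Gh1 was -0.07, Igfbp3 -0.14, Adipoq 0.03, Pparg 0.29, Fasn 0.07, Scd -0.16, Lipe 0.12, Hadha 0 and Bhlhe40 -0.07. Without high duct arrays Gh1 was -0.05, Socs2 0.06, Stat5b 0, Pparg 0.31 and Lipe 0.03. Leaving out 1 array gave ranges that crossed 0: Gh1 -0.03 to 0.11, Socs2 -0.22 to 0.11, Igfbp3 -0.04 to 0.22, Insr 0 to 0.15, Adipoq -0.07 to 0.04, Pparg -0.30 to 0.12, Scd -0.01 to 1.18, RT1-Ba -0.30 to 0.01 and Cish -0.35 to 0.51. For 37 lists 925 medians were recomputed, and several changed sign. With 2 scores as covariates the insulin signalling median was 0.05 against -0.08, lipogenesis 0.09 against -0.03 and adipocyte identity 0.01 against -0.10. Those of the fitted tissues were 0.02 against -1.27 for spermatid and -0.04 against 0.84 for duct epithelium markers. Medians that kept their sign included endothelial (-0.16), macrophage (-0.18) and immediate early genes (-0.24). The cause was not tested.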
